A study of Mus musculus with 4 samples.

Results

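The genes described here carry glucose into the cell, break it down to pyruvate, turn pyruvate into lactate and export it, feed pyruvate to the mitochondrion, and store or remake glucose. The list names 43 genes of these steps. They were found on the array by gene symbol, taking for each gene the probe set with the highest mean signal among those annotated to that gene alone. A probe set was found in this way for 40 of the 43, out of 18194 genes on the array, and Gpi1, Pfkfb1 and Eno1 have no value here. A floor at a log2 level of 6 in at least 1 array was passed by 39 of the 40, and by 11871 genes in all. Eno2 stayed below it. Pfkfb3, Pgam2 and Slc16a3 passed the floor in Vhl deleted arrays only, and Fbp1 in a Vhl floxed array only, so these 4 had to differ to some extent.

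Total RNA came from mucosa scraped off the colon of mice, 5 weeks of age and of strain 129S6/SvEv, and was hybridised to an Affymetrix mouse array. There were 4 genotypes with 1 array each: VhlΔIE/Apcmin/+, in which Vhl was deleted in the intestine and Apc carried the Min mutation; VhlΔIE, with the deletion alone; VhlF/F/Apcmin/+, with floxed, intact Vhl and the Min mutation; and VhlF/F, with floxed Vhl alone. The design text names 5, 3, 3 and 4 mice for these genotypes, without saying whether their RNA was pooled, and the sources used here do not name the promoter that drove Cre. The comparisons ask what loss of Vhl, with and without mutant Apc, does to colon transcripts. With 1 array per genotype no difference has a replicate check, and no p-value is given. A fit that adds a Vhl and an Apc effect over the 4 arrays would take the gap between the Apc backgrounds as its error, and was not run. All values are RMA log2 levels, so a difference of 1 is a 2-fold difference, and levels of different genes cannot be set against each other because probes differ in brightness.

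Glycolysis splits glucose into pyruvate and yields ATP without oxygen. Vhl is the recognition subunit of the ubiquitin ligase that destroys hypoxia-inducible factors (HIF), and many genes of glucose uptake, glycolysis, lactate formation and export are textbook HIF targets. Most steps have several isoforms encoded by separate genes, with different tissue distribution and regulation. Colonocytes are known for taking much of their energy from bacterial butyrate, which enters through monocarboxylate carriers and is burnt in mitochondria.

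Labels and tissue were checked first. Vhl read 7.03 in the VhlΔIE array, against 8.40 in the VhlF/F array, and 6.56 in the VhlΔIE/Apcmin/+ array, against 8.17 in the VhlF/F/Apcmin/+ array. Of the control probe sets, the 4 that detect Cre lay between 7.41 and 9.95 with deletion and between 2.97 and 4.45 without. All 10 markers of colon epithelium lay between 12.25 and 14.07 in every array. In the Vhl comparisons 5 were higher without and 4 with the Apc mutation, with median differences of 0.01 and -0.05. The absorptive cell markers Slc26a3, at -0.69 and -0.76, and Car4, at -0.63 and -0.72, were lower in both. Car1, at -0.33 and -0.30, and Aqp8, at -0.07 and -0.24, were lower by less. In the same list Krt20, at 0.09 and 0.39, and Vil1, at 0.14 and 0.24, were higher in both. Other cell types differed between the same arrays. Of 14 hepatocyte markers, 12 had their highest value in VhlF/F, the control array of the Vhl comparison without the Apc mutation. Their median Vhl differences were -3.03 without and 0.16 with the Apc mutation. All 10 endothelial markers were higher in both Vhl comparisons, with mean levels of 7.95 in VhlΔIE against 6.69 in VhlF/F, and 7.88 in VhlΔIE/Apcmin/+ against 6.82 in VhlF/F/Apcmin/+. Of 8 macrophage and dendritic cell markers, 8 were higher without and 7 with the Apc mutation, with medians of 0.69 and 0.30. Of 10 smooth muscle markers 0 were higher, with medians of -0.62 and -0.47. Of 5 adipocyte markers above the floor, 2 were higher without and 5 with the Apc mutation, and of 5 neuron and glia markers 0 and 1 were higher, with medians of -0.32 and -0.51. The part of these cells in the results below was not tested. Xist, the RNA that coats the silenced X chromosome of females, had levels of 5.58 in VhlΔIE against 11.37 in VhlF/F, and 6.25 in VhlΔIE/Apcmin/+ against 11.83 in VhlF/F/Apcmin/+, so the sex of the mice and Vhl status cannot be told apart. In scraped mucosa more cells of a type and more RNA per cell cannot be told apart.

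Vhl deleted arrays had higher transcript levels at most steps from glucose uptake to lactate export, with a few isoforms on the lower side. Of the glucose-making enzymes, Pck1 and Fbp1 were lower in both comparisons, and Fbp2 and Pck2 were higher in both. Fbp1 passed the floor only in the VhlF/F array. Without the Apc mutation, 8 of 39 members reached 2-fold in the higher direction, against a background of 2.27% of all genes above the floor. Among them, Pfkfb3, Pgam2 and Slc16a3 passed the floor in Vhl deleted arrays only. With values raised to the floor their differences were 1.49, 0.41 and 1.92. In the lower direction 2 members, Fbp1 among them, reached 2-fold, against 1.6%. With the Apc mutation 5 reached 2-fold in the higher direction, against 2.82%, and 2 in the lower, against 1.52%. At 1.5-fold, 15 and 13 members were higher, against 6.22% and 7.19% of all genes, and 2 and 3 were lower, against 5.08% and 5.15%, without and with the Apc mutation in that order. Differences above 0 were found for 28 members in each comparison, against 46.6% and 46.5%. The median difference of the members was 0.38 without and 0.42 with the Apc mutation, while the median over all genes was -0.02 in each comparison. Because members were chosen with earlier results of these data known, the shares of all genes are a description and not a test. The pair of Vhl comparisons shares no array. At least 2-fold higher in both were Slc16a3 and Pfkfb3, whose floxed values lay under the floor, and Gbe1, Pfkp and Pfkl. The share of all genes there was 1.58%. At 1.5-fold 12 members were higher in both, against 4.42%. Pck1 alone was 2-fold lower in both, where it was 0.733%.

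Direction was shared by most members. In 26 members both Vhl deleted arrays lay above both floxed arrays, against 27.7% of all genes, and in 9 members both lay below both floxed arrays, against 33.4%. The same members were the ones with a difference of one sign in both comparisons, above 0 in 26, against 34.5% of all genes, and below 0 in 9, against 41.4%. Slc2a3, Pfkfb2, Ldhb and Pdhb differed in sign between them, 4 members against 23.9% of all genes.

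**Figure D1:**
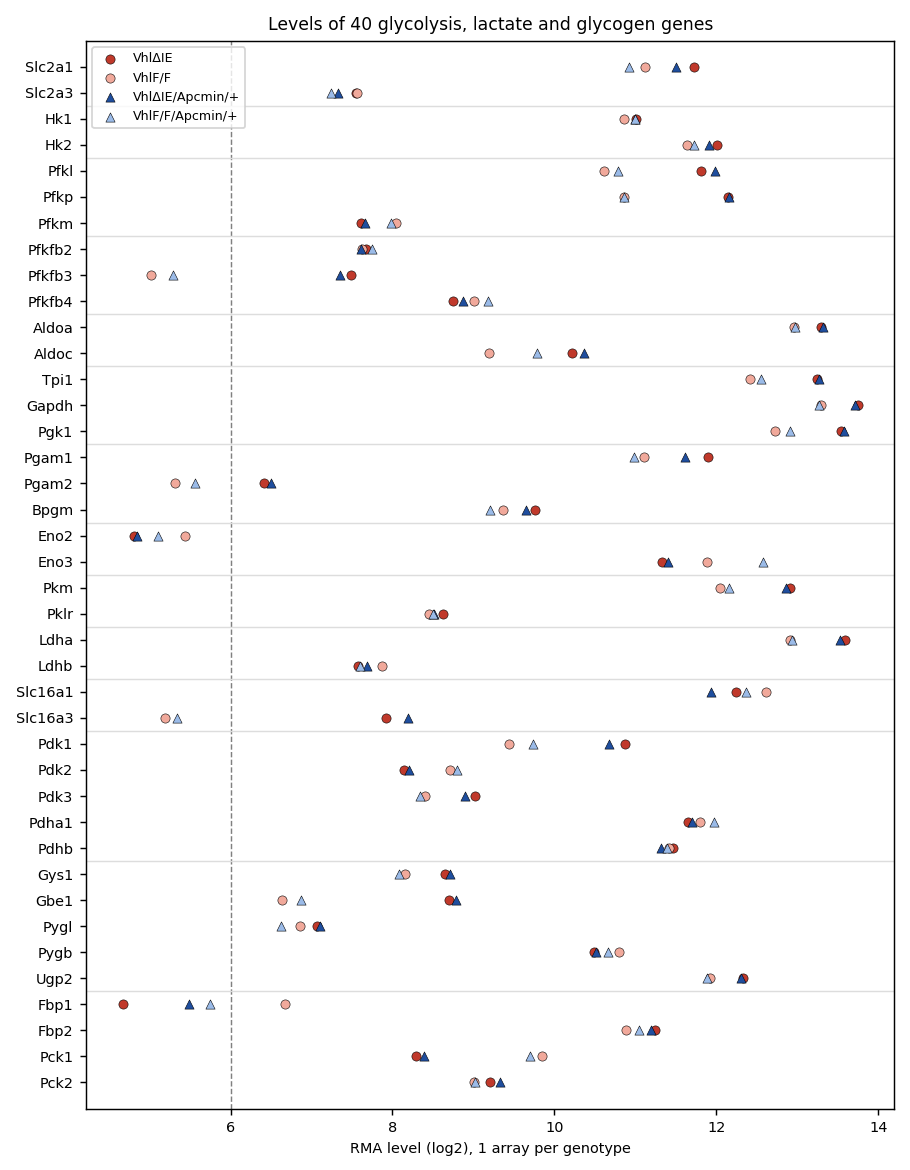
RMA log2 levels (horizontal axis) of the 40 members with a probe set, 1 symbol per array, with circles for wild-type Apc, triangles for Apcmin/+, dark fill for deleted Vhl and light fill for floxed Vhl; horizontal lines part the steps and the dashed line is the floor of 6. Slc16a3, Pfkfb3 and Gbe1 show the widest gaps between dark and light symbols, though light symbols of Slc16a3 and Pfkfb3 lie under the floor, and levels of different rows are not comparable.

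**Figure D2:**
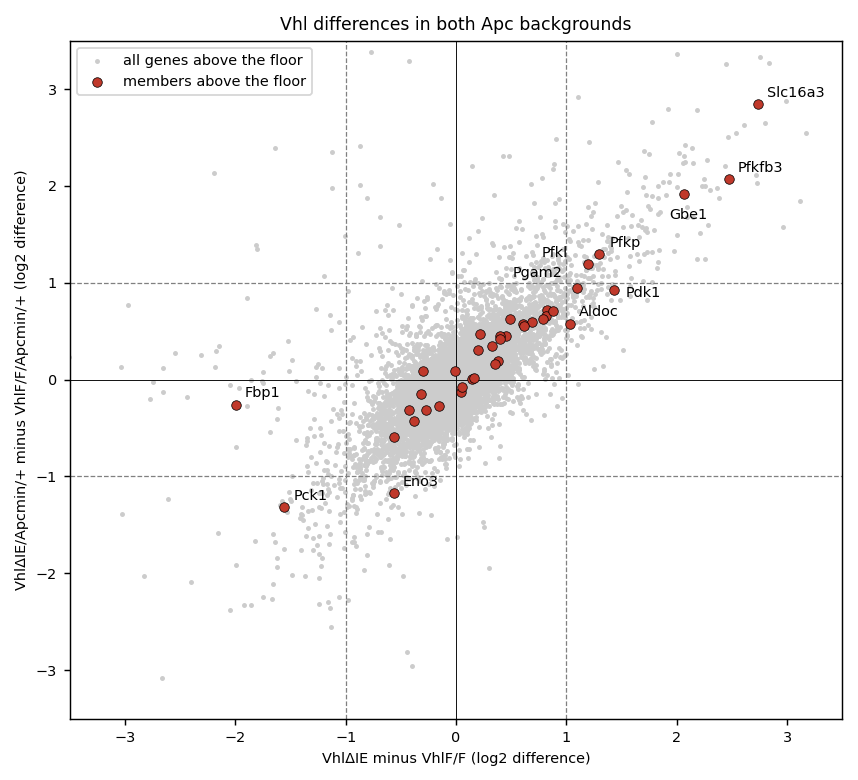
Difference of VhlΔIE minus VhlF/F (horizontal axis, log2) against VhlΔIE/Apcmin/+ minus VhlF/F/Apcmin/+ (vertical axis, log2) for 11871 genes in grey and 39 members in red, with dashed lines at 2-fold and 33 genes beyond the axes not drawn. Slc16a3 lies at 2.73 and 2.85, Pck1 at -1.56 and -1.31, and Fbp1 is the member farthest from equal differences, at -1.997 and -0.26.

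Shown here are stretches before the transcription start of the members at least 2-fold apart in both Vhl comparisons, and of Ldha and Slc16a1. They are shown because HIF binds DNA at a short core spelled ACGTG, or in the form with G in place of the first A, GCGTG. Each is the 250 bases before an annotated start from RefSeq's GRCm38.p6 annotation, printed 5′ to 3′ on the gene's own strand, with both spellings in capitals on either strand, so that a core on the other strand reads CACGT, and for the second spelling CACGC. Slc16a3, Pfkfb3 with its 2 annotated starts, Gbe1, Pfkp and Pfkl were 2-fold higher in both comparisons, and Pck1 was 2-fold lower in both. Ldha and Slc16a1 did not reach 2-fold. They were added by choice as a lactate-forming enzyme that was higher and a monocarboxylate carrier that was lower in both. Members past 2-fold in a single Vhl comparison, such as Pdk1, Eno3 and Fbp1, are not printed.
Slc16a3, chr11:120948817-120949066, plus strand: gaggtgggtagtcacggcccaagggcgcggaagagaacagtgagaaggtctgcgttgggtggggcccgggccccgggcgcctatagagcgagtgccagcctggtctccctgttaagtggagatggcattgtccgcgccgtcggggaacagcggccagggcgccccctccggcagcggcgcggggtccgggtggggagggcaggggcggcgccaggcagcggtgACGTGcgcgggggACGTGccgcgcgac
Pfkfb3, upstream start, chr2:11553930-11554179, minus strand: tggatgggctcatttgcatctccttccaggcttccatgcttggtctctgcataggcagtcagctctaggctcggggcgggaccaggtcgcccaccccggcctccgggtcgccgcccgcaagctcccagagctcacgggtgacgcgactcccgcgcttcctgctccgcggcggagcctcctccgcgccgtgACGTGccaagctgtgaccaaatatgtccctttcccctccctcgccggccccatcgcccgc
Pfkfb3, downstream start, chr2:11502091-11502340, minus strand: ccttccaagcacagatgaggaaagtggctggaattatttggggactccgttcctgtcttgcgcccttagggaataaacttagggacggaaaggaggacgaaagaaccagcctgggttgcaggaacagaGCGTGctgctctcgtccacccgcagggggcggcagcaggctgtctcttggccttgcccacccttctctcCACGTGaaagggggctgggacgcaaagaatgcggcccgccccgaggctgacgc
Gbe1, chr16:70313699-70313948, plus strand: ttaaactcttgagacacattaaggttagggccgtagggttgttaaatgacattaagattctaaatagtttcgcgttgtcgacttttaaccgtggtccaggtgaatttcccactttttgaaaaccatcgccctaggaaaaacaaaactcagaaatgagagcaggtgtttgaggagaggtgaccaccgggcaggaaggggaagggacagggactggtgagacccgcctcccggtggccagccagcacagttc
Pfkp, chr13:6648772-6649021, minus strand: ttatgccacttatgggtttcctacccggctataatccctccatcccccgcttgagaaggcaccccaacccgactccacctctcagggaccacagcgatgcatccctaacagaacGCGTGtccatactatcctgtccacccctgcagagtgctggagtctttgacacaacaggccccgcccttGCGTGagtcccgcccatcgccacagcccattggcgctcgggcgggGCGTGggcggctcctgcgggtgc
Pfkl, chr10:78009808-78010057, minus strand: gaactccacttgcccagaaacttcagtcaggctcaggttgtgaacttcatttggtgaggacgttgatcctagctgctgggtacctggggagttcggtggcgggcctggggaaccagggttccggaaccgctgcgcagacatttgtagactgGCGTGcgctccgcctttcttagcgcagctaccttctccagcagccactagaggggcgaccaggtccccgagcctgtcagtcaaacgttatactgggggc
Pck1, chr2:173152823-173153072, plus strand: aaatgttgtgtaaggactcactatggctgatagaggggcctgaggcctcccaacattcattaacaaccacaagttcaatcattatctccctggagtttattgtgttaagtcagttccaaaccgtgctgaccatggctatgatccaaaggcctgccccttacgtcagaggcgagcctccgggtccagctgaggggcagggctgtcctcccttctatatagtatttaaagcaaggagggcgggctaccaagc
Ldha, upstream start, chr7:46845554-46845803, plus strand: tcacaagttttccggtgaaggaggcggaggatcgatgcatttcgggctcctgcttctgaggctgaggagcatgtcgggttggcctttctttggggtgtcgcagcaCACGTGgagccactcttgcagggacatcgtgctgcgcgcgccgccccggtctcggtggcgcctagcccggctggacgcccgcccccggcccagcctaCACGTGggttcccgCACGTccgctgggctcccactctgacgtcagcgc
Slc16a1, chr3:104638414-104638663, plus strand: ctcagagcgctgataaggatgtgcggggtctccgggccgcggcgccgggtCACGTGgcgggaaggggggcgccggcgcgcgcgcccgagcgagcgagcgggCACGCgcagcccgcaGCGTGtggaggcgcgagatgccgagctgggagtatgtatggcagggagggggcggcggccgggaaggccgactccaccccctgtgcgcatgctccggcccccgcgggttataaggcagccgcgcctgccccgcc

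Slc16a3 holds ACGTG 2 times near the end of the stretch, and Pfkp holds GCGTG 3 times. The core was not found in these letters for Gbe1 or Pck1. The Ldha window holds the palindrome CACGTG 2 times, which counts once on each strand. Promoter windows were at hand for 42 of the 43 genes, all but Slc2a3, and 32 of these, or 76.2%, held either spelling on either strand in the 250 bases, against 41.5% of 27025 genes of every kind in the same table. A gene was counted if any of its windows held it, and members had more windows per gene, 63 in all against 32851. Of single windows, 66.7% of those of members held either spelling, against 38.6%. The share of genes was close in members of both directions. The core was present for 20 of the 26 members that were higher in both comparisons, or 76.9%, and for 7 of the 9 that were lower in both, or 77.8%. The first spelling was present for 13 of the 26 and for 4 of the 9. A match is a description of letters only, and that spelling was present for 45.2% of the 42 genes against 18.5% of all genes.

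Glucose enters colon cells through facilitative carriers of the GLUT family. Slc2a1, the widely expressed carrier GLUT1, read 11.73 in the VhlΔIE array and 11.12 in VhlF/F, and 11.50 in VhlΔIE/Apcmin/+ and 10.92 in VhlF/F/Apcmin/+. Both deleted arrays were above both floxed ones, by 0.61 and 0.58. The other 2 probe sets of Slc2a1 gave larger differences, 0.89 and 0.99 without the Apc mutation and 0.78 and 0.76 with it. Slc2a3, the high-affinity carrier GLUT3 of neurons and leukocytes, differed by -0.01 and 0.09. The arrays paired by Apc rather than by Vhl status, with levels of 7.33 and 7.24 in the Apcmin/+ arrays and 7.55 and 7.56 in the others, deleted array first in each pair.

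Hexokinases trap glucose in the cell by phosphorylation. Hk2, the inducible isoform of muscle and tumours, was higher by 0.38 in VhlΔIE than in VhlF/F and by 0.19 in VhlΔIE/Apcmin/+ than in VhlF/F/Apcmin/+. For Hk1, the constitutive isoform, the differences were 0.15 and 0.0017, and a second probe set gave 0.12 and -0.25. Neither isoform came near 2-fold. A further probe set that lists Hk1 together with Rpl17 and its pseudogenes was not counted.

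Phosphofructokinase, the committing step of glycolysis, showed a split between its 3 isoforms. Pfkp, the platelet isoform, read 12.15 in VhlΔIE and 10.86 in VhlF/F, and 12.15 in VhlΔIE/Apcmin/+ and 10.86 in VhlF/F/Apcmin/+. Those values are 2.45-fold higher with deletion in each background. Pfkl, the liver isoform, read 11.81 and 11.98 in the deleted arrays without and with the Min mutation, against 10.61 and 10.79 in the floxed ones, differences of 1.20 and 1.19. All 3 probe sets of each gene were higher in both comparisons. The other 2 of Pfkp gave 0.94 and 1.64 without and 1.31 and 1.22 with the Apc mutation. One Pfkl probe set, the dimmest, gave 0.89 and 0.57, short of 2-fold. Pfkm, the muscle isoform, read 7.61 in VhlΔIE against 8.04 in VhlF/F, and 7.67 in VhlΔIE/Apcmin/+ against 7.98 in VhlF/F/Apcmin/+. Both deleted arrays were thus below both floxed arrays, with differences of -0.43 and -0.31. Smooth muscle markers, lower in 10 of 10 cases in both comparisons, had mean levels of 10.5 in VhlΔIE against 11.0 in VhlF/F, and 10.4 in VhlΔIE/Apcmin/+ against 10.9 in VhlF/F/Apcmin/+, and their part in the Pfkm value was not tested.

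The PFKFB enzymes make and remove the signal molecule, a fructose bisphosphate, that switches phosphofructokinase on, and here a single isoform stood out. Pfkfb3, the form with the strongest kinase activity, read 7.49 in VhlΔIE and 5.02 in VhlF/F, and 7.35 in VhlΔIE/Apcmin/+ and 5.28 in VhlF/F/Apcmin/+. The measured differences were 2.47 and 2.07, but both floxed values lay under the floor. With those values raised to the floor, the differences were 1.49 and 1.35, or 2.81-fold and 2.55-fold. Bacterial control probe sets, which have no target in mouse RNA, reached up to 5.10 with a median of 3.23, so Pfkfb3 was near the top of their range in the floxed arrays. A second Pfkfb3 probe set stayed at or under 3.82 in all arrays, in the range of these controls. Pfkfb4, known as a hypoxia-induced isoform in other tissues, was not higher, with differences of -0.27 and -0.32. Pfkfb2, the heart isoform, differed by 0.04 and -0.13, and a second probe set above the floor gave 0.54 and -0.07.

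Aldolase and the triose phosphate steps were higher by smaller amounts. Aldoa, the main aldolase of most tissues, was higher by 0.33 and 0.35, and its 5 probe sets gave 0.28 to 0.47 without and 0.24 to 0.49 with the Apc mutation. Aldoc, the brain isoform, read 10.22 against 9.19 without the Apc mutation, VhlΔIE first, and 10.36 against 9.78 with it, VhlΔIE/Apcmin/+ first. Its difference was thus 1.03 in one background and 0.58 in the other, and the VhlF/F/Apcmin/+ array exceeded the VhlF/F array by 0.60. Averaged with a second, dimmer probe set, the first difference was 0.92, short of 2-fold. Tpi1, triose phosphate isomerase, read 13.24 in VhlΔIE against 12.42 in VhlF/F, and 13.27 in VhlΔIE/Apcmin/+ against 12.55 in VhlF/F/Apcmin/+, and its 3 probe sets gave 0.82 to 0.84 without and 0.60 to 0.72 with the Apc mutation. Pgk1, which makes the first ATP of the pathway, read 13.54 in VhlΔIE against 12.72 in VhlF/F, and 13.57 in VhlΔIE/Apcmin/+ against 12.91 in VhlF/F/Apcmin/+. That is a difference of 0.82 and 0.66, and the other 2 probe sets gave 0.52 and 0.68 without and 0.46 and 0.81 with the Apc mutation. Pgk1 is X-linked, as are Pdk3 and Pdha1 below, and Xist differed between the same arrays; its part in these values was not tested.

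Gapdh, often used as a loading reference, was itself higher in the Vhl deleted arrays. It read 13.74 in VhlΔIE against 13.29 in VhlF/F, and 13.71 in VhlΔIE/Apcmin/+ against 13.26 in VhlF/F/Apcmin/+. The 3 control probe sets for the 5′ end, the middle and the 3′ end gave 0.45 to 0.59 without and 0.45 to 0.56 with the Apc mutation. The 3′ end exceeded the 5′ end by 0.01 to 0.10 for Gapdh over the 4 arrays and by 0.33 to 0.40 for Actb, so the arrays had similar 3′ bias.

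All 3 genes of the phosphoglycerate mutase family were higher in both comparisons. Pgam1, the widely expressed enzyme, read 11.89 in VhlΔIE against 11.10 in VhlF/F, and 11.61 in VhlΔIE/Apcmin/+ against 10.98 in VhlF/F/Apcmin/+, differences of 0.79 and 0.63. Bpgm, which makes bisphosphoglycerate, was higher by 0.40 and 0.45, and its other 2 probe sets gave 0.51 and 0.66 without and 0.48 and 0.51 with the Apc mutation. Pgam2, the muscle mutase, read 6.41 and 6.51 in the deleted arrays without and with the Min mutation and 5.32 and 5.56 in the floxed arrays, close to background, with differences of 1.10 and 0.95. Of 10 skeletal muscle markers 3 passed the floor, and they differed in direction, with medians of -0.46 and -0.29. Of 5 erythrocyte markers, 0 passed the floor, with mean levels of 4.48 in VhlΔIE against 4.60 in VhlF/F, and 4.68 in VhlΔIE/Apcmin/+ against 4.73 in VhlF/F/Apcmin/+. Their part in the Bpgm value was not tested. With values under the floor raised to it, the Pgam2 difference without the Apc mutation was 0.41.

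The 1 enolase gene above the floor was lower. Eno3, the muscle isoform, read 11.32 in VhlΔIE and 11.89 in VhlF/F, and 11.40 in VhlΔIE/Apcmin/+ and 12.57 in VhlF/F/Apcmin/+. Both deleted arrays lay below both floxed arrays, with differences of -0.56 without and -1.17 with the Apc mutation, and the VhlF/F/Apcmin/+ array was the highest of the 4. Eno2, the neuronal isoform and a HIF target in other tissues, lay below the floor at 4.80, 5.44, 4.84 and 5.10 in the VhlΔIE, VhlF/F, VhlΔIE/Apcmin/+ and VhlF/F/Apcmin/+ arrays. Eno1, the ubiquitous isoform, was not analysed here.

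Pyruvate kinase completes glycolysis. Pkm, which encodes the M1 and M2 forms and was measured by 1 probe set, read 12.92 in VhlΔIE against 12.04 in VhlF/F, and 12.86 in VhlΔIE/Apcmin/+ against 12.15 in VhlF/F/Apcmin/+, differences of 0.88 and 0.71. Pklr, the liver and red cell isoform, differed by 0.17 and 0.02. Its 3 probe sets spread from 0.03 to 0.61 without the Apc mutation.

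Related genes also differed from one another at lactate formation and export. Ldha, the subunit that favours lactate formation, read 13.59 in VhlΔIE against 12.90 in VhlF/F, and 13.53 in VhlΔIE/Apcmin/+ against 12.94 in VhlF/F/Apcmin/+, differences of 0.69 and 0.59. Ldhb, the subunit that favours lactate use, had differences of -0.30 and 0.09. Its 4 probe sets were all lower without the Apc mutation, by 0.30 to 0.76, and lay between -0.10 and 0.09 with it.

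Slc16a3, the lactate exporter MCT4, was at least 2-fold higher in both backgrounds. It read 7.92 in VhlΔIE and 5.19 in VhlF/F, and 8.19 in VhlΔIE/Apcmin/+ and 5.34 in VhlF/F/Apcmin/+, differences of 2.73 and 2.85. Both floxed values lay under the floor and just above the highest bacterial control, at 5.10. With values raised to the floor the differences were 1.92 and 2.19, or 3.78-fold and 4.57-fold, and without the Apc mutation Gbe1, at 2.06, was then ahead of Slc16a3. Slc16a1, the carrier MCT1 that takes up butyrate in colonocytes, lay lower in both deleted arrays, at 12.24 against 12.62 and at 11.94 against 12.37, VhlΔIE and VhlΔIE/Apcmin/+ first. Thus the exporter and the importer differed in opposite directions, by 2.73 and -0.38 without and 2.85 and -0.43 with the Apc mutation. The stretches printed above for both genes hold ACGTG.

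**Figure D3:**
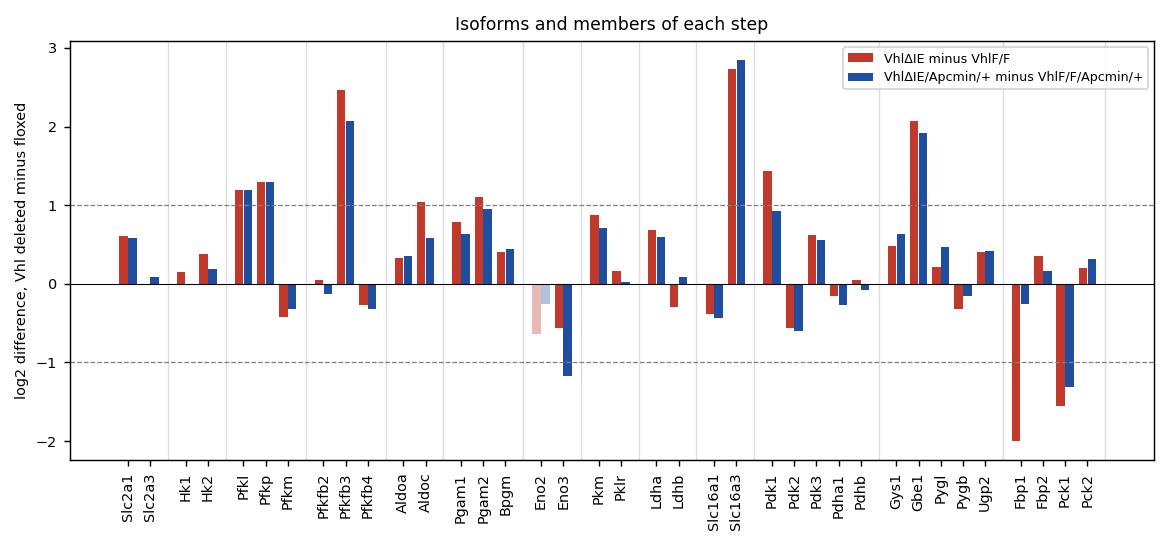
Log2 difference of Vhl deleted minus Vhl floxed (vertical axis) for the genes of each step with more than 1 named gene, red without and blue with the Apc mutation, with dashed lines at 2-fold and pale bars for Eno2, which is below the floor. Pfkl and Pfkp stand against Pfkm, Pfkfb3 against Pfkfb4, and Slc16a3 against Slc16a1.

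The gate between glycolysis and mitochondrial oxidation is the pyruvate dehydrogenase complex, which the PDK kinases shut by phosphorylation. Pdk1, the kinase known for its induction by HIF, read 10.87 in VhlΔIE and 9.43 in VhlF/F, and 10.67 in VhlΔIE/Apcmin/+ and 9.74 in VhlF/F/Apcmin/+. Its differences were 1.43 and 0.93, and the other 3 probe sets gave 1.22, 1.83 and 1.85 without and 0.73, 1.34 and 1.37 with the Apc mutation. So 4 of 4 were at least 2-fold higher without and 2 of 4 with the Apc mutation. Averaged over the 4 probe sets, the difference with the Apc mutation was 1.09, past 2-fold. Pdk3 read 9.02 in VhlΔIE against 8.40 in VhlF/F, and 8.89 in VhlΔIE/Apcmin/+ against 8.33 in VhlF/F/Apcmin/+, higher by 0.62 and 0.56. Pdk2, an isoform of oxidative tissues, read 8.14 in VhlΔIE against 8.71 in VhlF/F, and 8.21 in VhlΔIE/Apcmin/+ against 8.80 in VhlF/F/Apcmin/+, lower by 0.57 and 0.59. The kinases thus differed in direction among themselves. Pdha1, the alpha subunit of the complex, differed by -0.15 and -0.27, with -0.09 and -0.23 at a second probe set. Pdhb, the beta subunit, differed by 0.05 and -0.08, with -0.11 and -0.19 at a second probe set.

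Glycogen genes were led by the branching enzyme. Gbe1, which adds the branches of glycogen, read 8.70 in VhlΔIE and 6.64 in VhlF/F, and 8.79 in VhlΔIE/Apcmin/+ and 6.87 in VhlF/F/Apcmin/+. That is 4.18-fold and 3.77-fold higher, from 1 probe set. Gys1, the glycogen synthase of most tissues other than liver, read 8.64 in VhlΔIE against 8.16 in VhlF/F, and 8.71 in VhlΔIE/Apcmin/+ against 8.08 in VhlF/F/Apcmin/+, higher by 0.49 and 0.63. Ugp2, which makes the UDP-glucose that it uses, was higher by 0.40 and 0.42. All 5 Ugp2 probe sets were higher, by 0.27 to 0.40 without and 0.42 to 0.54 with the Apc mutation. Of the phosphorylases that break glycogen down, Pygl, the liver form, was higher by 0.22 and 0.47, and Pygb, the brain form, was lower by 0.32 and 0.15.

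**Figure D4:**
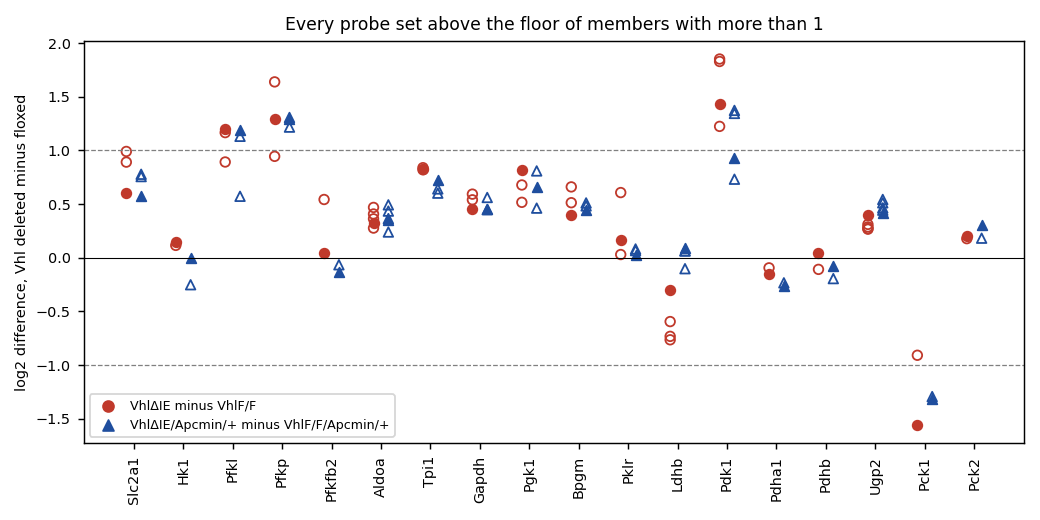
Log2 difference of Vhl deleted minus Vhl floxed (vertical axis) for each probe set above the floor of the 18 members with more than 1, red circles without and blue triangles with the Apc mutation, filled where the probe set stands for its gene in the text. Probe sets of 14 of these members lie on 1 side of 0 in both comparisons; Hk1, Pfkfb2, Ldhb and Pdhb do not.

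Gluconeogenesis remakes glucose from smaller molecules, and its cytosolic entry enzyme was lower. Pck1, phosphoenolpyruvate carboxykinase, read 8.29 in VhlΔIE and 9.84 in VhlF/F, and 8.38 in VhlΔIE/Apcmin/+ and 9.70 in VhlF/F/Apcmin/+. It was 2.94-fold lower without and 2.49-fold lower with the Apc mutation, and a second, dimmer probe set was lower by 0.91 and 1.29. Another lay at the level of the bacterial controls, and with all 3 averaged the differences were -0.80 and -0.95, short of 2-fold. Pck2, the mitochondrial form, was higher by 0.20 and 0.31, and by 0.18 in each comparison at a second probe set. Fbp2, the muscle fructose bisphosphatase, was higher by 0.35 and 0.16.

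Fbp1, the liver and kidney fructose bisphosphatase, read 4.67 in VhlΔIE and 6.67 in VhlF/F, and 5.48 in VhlΔIE/Apcmin/+ and 5.74 in VhlF/F/Apcmin/+. Only the VhlF/F array passed the floor, and the Vhl difference was -1.997 without against -0.26 with the Apc mutation. With values under the floor raised to it, the first became -0.67. Hepatocyte transcripts were high in the same array. Of 14 hepatocyte markers, 12 had their highest value in VhlF/F, and their mean level was 6.22 in VhlΔIE against 8.996 in VhlF/F, and 6.06 in VhlΔIE/Apcmin/+ against 5.94 in VhlF/F/Apcmin/+. Alb, serum albumin, read 7.24, 11.53, 7.08 and 6.10 in the same order of arrays. The part of liver RNA in the Fbp1 value was not tested. Pck1 is also a liver and fat gene. Hepatocyte markers had median Vhl differences of -3.03 without and 0.16 with the Apc mutation, adipocyte markers -0.02 and 0.58, and Pck1 -1.56 and -1.31. The part of these cells in the Pck1 values was not tested.

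**Figure D5:**
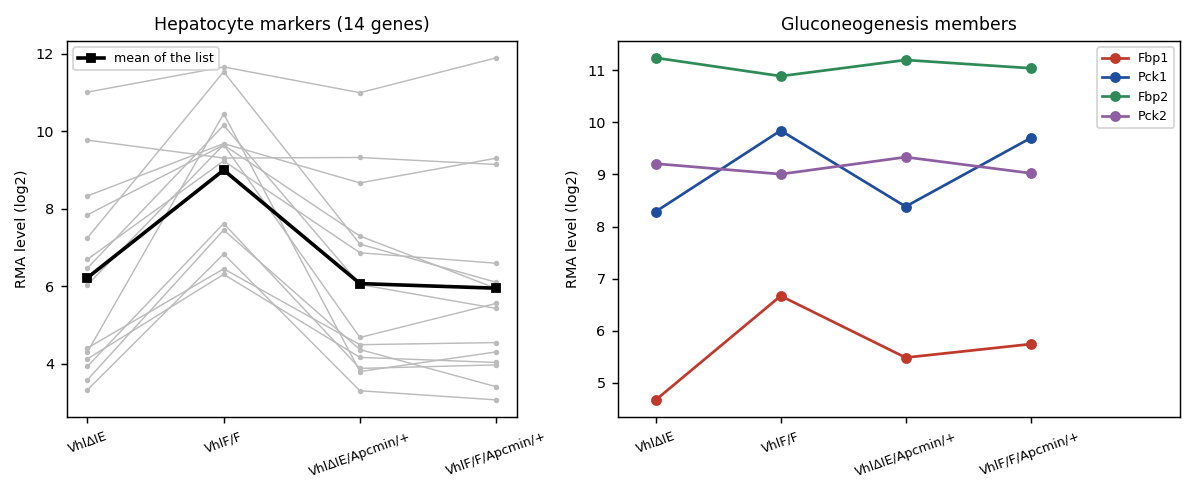
RMA log2 levels (vertical axes) in the 4 arrays (horizontal axes) of 14 hepatocyte markers in grey with their mean in black (left), and of Fbp1, Pck1, Fbp2 and Pck2 (right); lines join the arrays of a gene and imply no order. Fbp1 and the hepatocyte mean peak in VhlF/F, at 6.67 and 8.996, while Pck1 is high in both floxed arrays, at 9.84 and 9.70.

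The Apc mutation went with no 2-fold difference in any of the 39 members, with floxed or with deleted Vhl. The background was 0.118% of all genes in the higher and 0.901% in the lower direction where Vhl was floxed. Where it was deleted, the shares were 0.202% and 0.118%. With shares this low, 0 of 39 members is close to the background. At 1.5-fold, Eno3 and Aldoc were higher and Fbp1 lower with floxed Vhl, against 1.05% and 2.36% of all genes. Fbp1 was higher with deleted Vhl, against 0.724%, while 0 were lower, against 0.792%. Both Fbp1 values with deleted Vhl lay under the floor, at 4.67 in VhlΔIE and 5.48 in VhlΔIE/Apcmin/+. Above 0 were 23 members with floxed and 21 with deleted Vhl, against 50.8% and 50.5%. The members' median was 0.03 with floxed and 0.02 with deleted Vhl, against 0.0033 and 0.0022 for all genes. These comparisons share their arrays with the Vhl comparisons. With floxed Vhl the highest difference was 0.69 for Eno3, followed by 0.60 for Aldoc, and the lowest was -0.93 for Fbp1, in a comparison where the hepatocyte median was -3.68. With deleted Vhl, Fbp1 differed by 0.81, and all others lay between -0.30 and 0.27. Slc16a3 differed by 0.16 and 0.27 between Apcmin/+ and wild-type Apc, against 2.73 and 2.85 by Vhl status.

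The size of the Vhl difference was close in the 2 Apc backgrounds for most members, as it was for most genes. It was at least 1 apart for Fbp1 alone among the members, by 1.74, where the share among all genes was 1.57%. Only the VhlF/F level of Fbp1 reached the floor. Eno3 and Pdk1 followed at -0.61 and -0.50, with minus for a lower value in the Apc mutant background, and a gap of at least 0.5 was found for these 3 members, or 7.69%, against 6.86% of all genes. No replicate exists to test any of these gaps.

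Other genes of the same pathways were followed as well. Of 60 listed, 55 had a probe set and 43 passed the floor. With Vhl deletion 1 of 43 reached 2-fold in the higher direction in each background, and in the lower direction 0 did without and 1 with the Apc mutation, against the background shares given above; the medians were -0.04 and 0.05. Pgm1, phosphoglucomutase, which links glucose phosphate to glycogen, was the higher one, reading 10.69 in VhlΔIE against 9.32 in VhlF/F and 10.90 in VhlΔIE/Apcmin/+ against 9.46 in VhlF/F/Apcmin/+. Pdp2, a phosphatase that reopens the pyruvate dehydrogenase gate, was the lower one, at -0.92 and -1.04. Pdk4, the kinase induced by fasting and fatty acids, differed by -0.36 and 0.45 with Vhl deletion, and by -1.21 with the Apc mutation on floxed Vhl, the 1 gene of this list past 2-fold in an Apc comparison. In that comparison hepatocyte markers had a median of -3.68 and adipocyte markers of -0.95, with 0 of 5 adipocyte markers higher, and their part in the Pdk4 value was not tested. Bsg, the chaperone that brings MCT1 and MCT4 to the cell surface, and Ppp1r3b, which targets a phosphatase to glycogen, were named after their values were seen. They were short of 2-fold in both, at 0.88 and 0.998 for Bsg and 0.91 and 0.96 for Ppp1r3b.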

How the data were processed

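Mucosal RNA of 4 genotypes was measured on 1 array each, with 45101 probe sets. The values that the authors deposited are log2 levels, and the submitters' processing notes name affy and RMA. The sources used here give no versions. RMA gives the arrays like distributions (medians 6.05 to 6.07), so a change of all transcripts at once is hidden, and dim signals are compressed. Symbols came from GEO's platform annotation of 2016 and promoters from RefSeq for GRCm38.p6. Each gene took its single-symbol probe set with the highest mean, with a floor of 6. Differences are the mutant array minus its control, called at 2-fold; the counting was tested on simulated data. The rule was to name every member, and of other pathway genes those past 2-fold; Bsg, Ppp1r3b, Mpc1, Pcx and the pentose phosphate genes fall outside it and were chosen after their values were seen. Members and lists were chosen with earlier results of these data known. The number of arrays limits the precision. Alternatives were other floors, other probe set choices, cyclic loess (limma 3.58.1 in R 4.3.3) and a 1.5-fold threshold. All else was computed in Python 3.11.15 with pandas 2.3.3 and numpy 2.4.6, and drawn with matplotlib 3.10.9.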

Additional observations from a re-analysis of the deposited data

Results flagged for a closer look

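Fbp1 differed in opposite directions between the Apc comparisons. The Apcmin/+ array minus the wild-type Apc array gave -0.93 with floxed Vhl and 0.81 with deleted Vhl. This difference between the backgrounds was not tested, and 3 of the 4 levels lay under the floor of 6.

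Of 3 probe sets annotated to Gapdh together with its pseudogenes, which the comparisons above do not use, 1 was past 2-fold. It was higher in the Vhl deleted arrays by 1.01 without and 0.55 with the Apc mutation, at 7.58 in VhlΔIE against 6.57 in VhlF/F, and 7.33 in VhlΔIE/Apcmin/+ against 6.78 in VhlF/F/Apcmin/+. A second with the same annotation gave 0.28 and 0.62, and the brightest, which lists further pseudogenes, 0.32 and 0.35. The 3 probe sets annotated to Gapdh alone gave 0.45 to 0.59.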

How the results depend on the processing

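With 1 array per genotype, no setting replaces a replicate, and signal near the floor of 6 limits Pfkfb3, Slc16a3, Pgam2 and Fbp1. No paired analysis was possible because each genotype has 1 array and the labels carry no replicate numbers. The 17 single-member differences past 2-fold had 144 values under other settings. Of these, 136 stayed past 2-fold, 8 fell short and 0 changed direction. Moving or dropping the floor, or leaving out control probe sets, cannot alter these differences, so part of the 136 was fixed in advance. The 8 were Pfkl, in 3 values under probe set choices, Pck1 in 2, and Aldoc, Pgam2 and Fbp1 in 1 each. In the other direction 1 difference came past 2-fold, that of Pdk1 with the Apc mutation, at 1.09 with the mean over probe sets. Without Apc mutation, members 2-fold lower numbered 1, in place of 2, with a floor of 7, with values raised to 6, with the mean over probe sets, and with a floor on the mean of the 4 arrays, a setting chosen after seeing the data. With the Apc mutation the mean over probe sets also gave 1. Without probe sets ending in _s_at, _x_at or _a_at, 30 members were left, and 5 and 3 were 2-fold higher. Their median with the Apc mutation was 0.32, against -0.03 for all genes under that setting. At 1.5-fold, 15 and 13 were higher by Vhl status, 2 were higher and 1 lower by Apc status with floxed Vhl, and 1 was higher with deleted Vhl. Of the other pathway genes, 0 were lower by Apc status with floxed Vhl under a floor of 7 or raised values, and cyclic loess gave 3 higher and 0 lower by Vhl status with the Apc mutation. At 1.5-fold, 3 of these 43 were higher and 2 lower by Vhl status without the Apc mutation, against 6.22% and 5.08% of all genes. With it, 4 were higher and 6 lower, against 7.19% and 5.15%. By Apc status with floxed Vhl, 1 was higher and 2 lower, against 1.05% and 2.36%. No share of all genes is given here for the settings other than 1.5-fold, so their counts have no background beside them. The cause of these shifts was not tested.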

Other observations

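The pentose phosphate pathway branches off glycolysis and makes NADPH and ribose. Of 9 listed genes, 8 had a probe set and 7 passed the floor; 5 were higher without and 6 with the Apc mutation, where 46.6% and 46.5% of all genes were higher, and 0 reached 2-fold. With Vhl deletion, Rpe, the ribulose phosphate epimerase, differed by 0.49 and 0.37, H6pd, the hexose phosphate dehydrogenase of the endoplasmic reticulum, by 0.38 and 0.64, and Pgd, phosphogluconate dehydrogenase, by 0.31 and 0.16. Tkt, transketolase, differed by 0.09 and 0.28, and Rpia, the ribose phosphate isomerase, by 0.01 and 0.20. Taldo1, transaldolase, differed by -0.14 and 0.10, and Pgls, the lactonase, was lower in both, at -0.12 and -0.17. The medians of the 7 genes were 0.09 and 0.20.

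Genes of pyruvate handling were read as well. Mpc1, a subunit of the mitochondrial pyruvate carrier, had levels of 11.44 in VhlΔIE against 11.71 in VhlF/F, and 11.31 in VhlΔIE/Apcmin/+ against 11.79 in VhlF/F/Apcmin/+. Pcx, pyruvate carboxylase, was higher by 0.52 and 0.34 at the brightest of its 5 probe sets. Its dimmer 5′ control probe set read 6.97 in VhlΔIE against 6.68 in VhlF/F. With the Apc mutation that probe set read 6.83 in VhlΔIE/Apcmin/+ against 6.82 in VhlF/F/Apcmin/+. The middle control probe sets read 7.04 against 6.90 and 7.72 against 7.55 in those Apcmin/+ arrays. Mpc1 and Pcx were chosen after their values were seen.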
